A study of Rattus norvegicus with 20 samples.

Results

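The Hox rows were the 38 rows of the count table, out of 32545, whose symbol is Hox followed by a cluster letter from a to d and a number. They held 35 symbols, because Hoxa5 stood in 3 rows and Hoxa11 in 2. By cluster there were 11 rows of Hoxa, 10 of Hoxb, 8 of Hoxc and 9 of Hoxd. Of the Hox genes that RefSeq lists for the rat, 8 of 11 A symbols, 10 of 10 B symbols, 8 of 9 C symbols and 9 of 9 D symbols had a row by symbol.

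The libraries came from cortical collecting ducts, the part of the tubule where vasopressin adjusts how much water is taken back, microdissected after collagenase treatment from the left kidneys of 20 male Sprague-Dawley rats at 5 weeks of age. Every rat, controls included, carried a minipump releasing DDAVP, an agonist of the vasopressin V2 receptor, at 5 ng per hour, so no group was free of the agonist. The water-loaded rats received 50 mL of water per day in gelled food, and the control rats 25 mL per day. Ducts were taken after 1, 2 or 4 days, from 3 water-loaded and 3 control rats on days 1 and 4 and from 4 of each on day 2. The labels name no altered allele, and each library was 1 rat. The study asked how the duct changes when rats escape from the antidiuretic action of vasopressin under a water load.

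Hox genes encode homeodomain transcription factors that lie in 4 clusters, A to D, each a row of genes numbered by position. In the embryo the low numbers are switched on nearer the head and the high numbers nearer the tail, and many adult tissues keep part of the pattern of the place they came from. The collecting duct grows from the ureteric bud, an outgrowth of the nephric duct, whereas the nephron grows from the metanephric mesenchyme, where in mouse the position 11 genes are needed for kidney formation. In mouse a promoter fragment of Hoxb7 is widely used to drive transgenes in the ureteric bud and the collecting duct.

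Reads on genes numbered 33527913 to 74868598 per library, so a single count was worth 0.0134 to 0.0298 CPM, the usual unit of counts adjusted for library size. All 8 principal cell markers, including Aqp2, the vasopressin-regulated water channel, all 5 type A and all 4 type B intercalated cell markers were expressed, as were 4 of 4 loop of Henle, 3 of 10 proximal tubule, 5 of 6 endothelial and 6 of 8 immune cell markers. Of the podocyte markers 1 of 3 was expressed, and of the smooth muscle markers 1 of 5. Of the fibroblast and pericyte markers 2 of 9 were expressed, and of the distal convoluted tubule markers 0 of 3. A pair of day 1 libraries stood apart. Control rat 1 had a summed level of smooth muscle markers of 4336 CPM, against at most 18.45 CPM in any other library, with 0 of 5 of them at 0, and of fibroblast and pericyte markers of 1606 CPM, against at most 123 CPM elsewhere. Water-loaded rat 2 had 5945 CPM of proximal tubule markers, against at most 2302 CPM in any other library. Values that moved most with them are given with and without them below. In a dissected tubule, fewer cells of a type and less RNA per cell cannot be told apart.

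Of the 38 Hox rows 12 were expressed, meaning a median of at least 1 FPKM over the 20 libraries. FPKM is the read count scaled by gene length and library size and allows levels of genes of unequal length to be compared. All 12 belonged to the B and D clusters: Hoxb2, Hoxb3, Hoxb4, Hoxb5, Hoxb6, Hoxb7 and Hoxb9, and Hoxd3, Hoxd4, Hoxd8, Hoxd9 and Hoxd10. No row of the A or the C cluster reached the level. Over all 32545 genes, 9882 or 30.4% reached it. Hoxb9, with a median of 2.07 FPKM, was the member just inside and Hoxb8, with 0.873 FPKM, the member just outside.

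**Figure D1:**
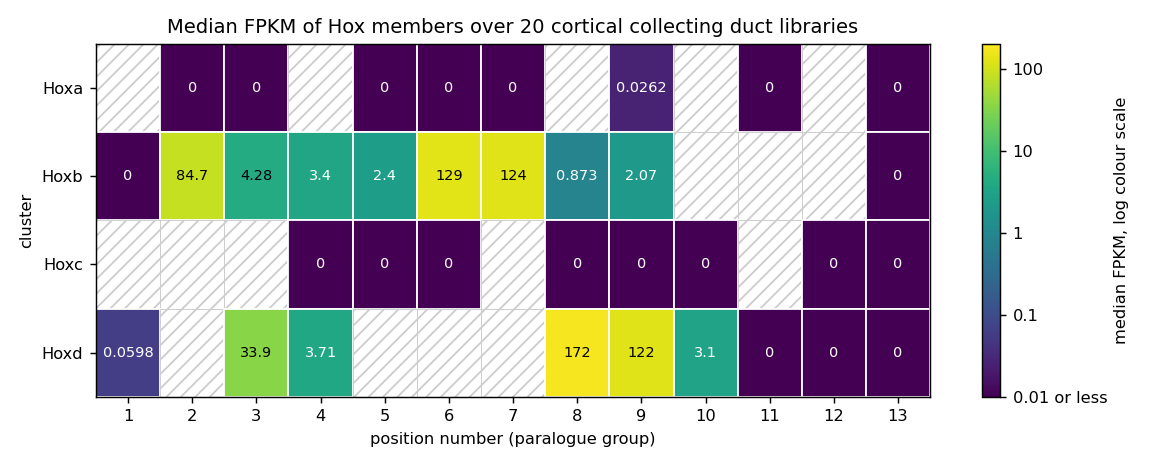
Median FPKM over the 20 libraries for each cluster (rows) and position number (columns), printed in each cell and coloured on a log scale; hatched cells hold no value, and for Hoxa5 and Hoxa11 the highest of their rows is drawn. Values above 1 FPKM run from Hoxb2 to Hoxb9, apart from Hoxb8, and from Hoxd3 to Hoxd10, and the Hoxa and Hoxc rows lie at or near 0.

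Within the B and D clusters the members over 3 counts in most libraries formed unbroken runs. In the B cluster the run went from Hoxb2 to Hoxb9, Hoxb8 at a low level included, while both ends, Hoxb1 and Hoxb13, had 0 counts in every library. In the D cluster it went from Hoxd1, at a low level and over 3 counts in 11 libraries, to Hoxd10. Hoxd11 was over 3 counts in 6 libraries, and Hoxd12 and Hoxd13 had 0 counts in every library. A count of 0 allows up to 3 counts, or 0.0401 to 0.0895 CPM at the depth of these libraries, and covers counting error only, since the cDNA was amplified and molecules were not tagged.

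Level did not follow position number. Hoxd8 had the highest median, 172 FPKM (range 83.95 to 339.8), and 1.89% of all genes had a higher one. Hoxb6, a gene of the trunk and limb mesoderm in mouse, had 129 FPKM (31.6 to 234), Hoxb7 124 FPKM (64.6 to 250) and Hoxd9 122 FPKM (78.2 to 352). Hoxb2, known for its part in hindbrain patterning, had 84.7 FPKM (22.4 to 188), and Hoxd3, which patterns the first cervical vertebra in mouse, 33.9 FPKM (3.97 to 75.7). These 6 made up 94.1% to 98.3% of the summed Hox FPKM of a library.

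The other 6 expressed members lay far lower, with medians from 2.07 FPKM for Hoxb9 to 4.28 FPKM for Hoxb3. Between them came Hoxd4 at 3.71 FPKM, Hoxb4, known for the expansion of blood stem cells in mouse, at 3.4 FPKM, Hoxd10 at 3.10 FPKM and Hoxb5 at 2.404 FPKM. The step from Hoxd3 to Hoxb3 held within libraries, Hoxd3 being above Hoxb3 in 19 of 20. Among the 4 highest the order was not stable: Hoxd8 was above Hoxb6 in 17 of 20 libraries, Hoxb6 above Hoxb7 in 8, Hoxb7 above Hoxd9 in 10. Hoxb2 was above Hoxd3 in 19. Among the low 6, a member was above the next in 8 to 13 of 20 libraries, so their order was not resolved.

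The member with the highest FPKM was Hoxd8 in 11 libraries, Hoxd9 in 6, and Hoxb7, Hoxb2 and Hoxb6 in 1 each. The share of a library's summed Hox FPKM was 34.1% to 70.6% for the D cluster and 29.4% to 65.9% for the B cluster, so either could be the larger. The C cluster had at most 1.89% and the A cluster at most 0.0403%.

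Summed over the 20 libraries, the 11 A rows held 60 counts and the 8 C rows 3095, against 389580 for the B rows and 576165 for the D rows. Of the A rows, 4 had 0 counts everywhere and 6 never passed 3 counts. Hoxa9 passed 3 counts in 6 libraries, with at most 9 counts. Some of the A rows cannot be read as silent genes from counts alone. Hoxa5 and Hoxa11 are listed more than once, 7 further rows outside the rule are annotated as Hox-A or Hox-C proteins or alike, and reads with several mapping places, 21.3% to 26.9% of a library, were not assigned to genes. The highest count of any of those 7 rows was 4. The part of such copies in the low A values was not tested. RefSeq also gives Hoxa3 as overlapping Hoxa4, Hoxa5 and Hoxa6, and Hoxc6 as overlapping Hoxc4 and Hoxc5, so reads between them may be split or lost.

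The genes next to the clusters were not uniformly silent or active. Of the 3 nearest matched genes on each side, in the order of the RefSeq annotation, the A cluster had Skap2 at 16.2 FPKM, Snx10 at 11.6 FPKM and Hnrnpa2b1 at 451 FPKM before it and Hibadh at 93.9 FPKM after it. The D cluster had Evx2, a homeobox gene beside Hoxd13, at 0 counts on its silent side and Mtx2 at 317 FPKM, a gene of mitochondrial import, beyond Hoxd1 on the other. Beside the B cluster, Ttll6 and Calcoco2 had 0 counts next to Hoxb13 and Skap1 had 4.35 FPKM beyond Hoxb1. Calcoco1 had 0.0248 FPKM and Smug1 8.32 FPKM on the 2 sides of the C cluster.

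The D cluster holds the highest member and a member with 0 counts within 1 row of genes, and their promoter stretches are shown to set the 2 states side by side. The table of RefSeq promoters (build GRCr8, matched by symbol) held 21 entries for 20 Hox symbols, with 5 of the 12 expressed members among them. Each sequence below is the 250 bases before the start site on the plus strand of chromosome 3. Capitals mark the CCAAT box, the TATA box searched as TATAAA, and the joint Hox and Pbx motif TGATTNAT, each on either strand. Hoxd8 lies at chr3:80014973-80015222, Hoxd9 at chr3:80007756-80008005 and Hoxd13 at chr3:79977827-79978076.
Hoxd8: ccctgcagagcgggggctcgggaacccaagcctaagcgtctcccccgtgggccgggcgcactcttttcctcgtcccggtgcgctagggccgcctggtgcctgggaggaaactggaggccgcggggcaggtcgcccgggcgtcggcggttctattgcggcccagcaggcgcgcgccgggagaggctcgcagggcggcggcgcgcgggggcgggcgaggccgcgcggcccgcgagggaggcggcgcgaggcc
Hoxd9: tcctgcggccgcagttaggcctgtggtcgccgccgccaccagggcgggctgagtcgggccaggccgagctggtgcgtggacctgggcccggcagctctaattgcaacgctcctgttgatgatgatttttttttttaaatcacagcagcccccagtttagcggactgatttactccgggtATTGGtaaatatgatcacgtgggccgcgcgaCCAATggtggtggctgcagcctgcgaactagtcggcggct
Hoxd13: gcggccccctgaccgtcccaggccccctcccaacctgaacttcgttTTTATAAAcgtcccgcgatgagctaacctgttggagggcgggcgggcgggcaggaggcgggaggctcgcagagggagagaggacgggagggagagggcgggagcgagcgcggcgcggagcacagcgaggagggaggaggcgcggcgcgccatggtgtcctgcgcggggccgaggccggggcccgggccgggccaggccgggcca
All 3 stretches were rich in CpG, the base step that DNA methylation acts on. Hoxd8 had 38 CpG, Hoxd9 20 and the silent Hoxd13 30, while the median over all 33469 promoters was 5. Hoxd9 held 2 CCAAT matches and Hoxd13 held 2 TATAAA matches, which overlap on opposite strands, and Hoxd8 held none of the 3 motifs. CCAAT was in 34.0% of all promoters, TATAAA in 12.9% and TGATTNAT in 2.82%. Over the 21 Hox entries the median was 20 CpG, and it was 20 in the 5 expressed and 19 in the other 16. A match is a description of letters and not of binding.

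Each cluster also carries miRNA genes, whose hairpins are rows of the table although mature miRNAs were not assayed. Mir10a, Mir10b and Mir196b had 0 counts in every library, Mir196a at most 4 and Mir615 17, each in 1 library. Mir196c, between Hoxb genes on chromosome 10, had 0 to 68 counts, with a read in 9 libraries. The mature 5p forms of the miR-196 family, which lie in the A, B and C clusters and target Hox transcripts in mouse, share a seed, shown in capitals from RefSeq.
rno-miR-196a-5p: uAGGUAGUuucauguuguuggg
rno-miR-196b-5p: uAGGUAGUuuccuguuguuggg
rno-miR-196c-5p: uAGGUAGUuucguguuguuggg
The 3 forms have the same bases 2 to 8 and come from chromosomes 7, 4 and 10 in that order.

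Values across the 6 groups are given below as CPM with TMM factors, which serve to compare a gene between libraries and not genes with each other. The lowest factors were those of the pair that stood apart, 0.645 in control rat 1 and 0.686 in water-loaded rat 2 of day 1. A low factor raises the CPM of its library. Of the 38 rows, 16 had counts enough for the test: the 12 expressed members with Hoxb8, Hoxc4, Hoxd1 and Hoxd11. The other 22 were not tested. No member passed an adjusted p of 0.05 in edgeR's quasi-likelihood test with Benjamini-Hochberg adjustment over the 14472 genes tested, for water load minus control at day 1, day 2 or day 4, where 0% of all genes passed. Over the average of days 0 of 16 members passed and 23 genes in all, or 0.159%. For the water load effect differing between days 0 members and 0% of genes passed, and 2 of 16 members and 8.56% of genes had an unadjusted p under 0.05.

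Hoxb7 came nearest to the threshold over the average of days. At day 1 Hoxb7 was at 144, 124 and 144 CPM under water load, against 511, 211 and 144 CPM in control rats. Its day 2 values were 138, 98.2, 88.7 and 123 CPM in water-loaded rats and 229, 256, 179.8 and 183 CPM in control rats. At day 4 the water-loaded rats had 129, 122 and 164 CPM and the control rats 204, 265 and 144 CPM. All 4 water-loaded rats lay below all 4 controls at day 2, and at days 1 and 4 the lowest control rat lay inside the range of the water-loaded rats. Over the days 8 of the 10 control rats were above the highest water-loaded rat, and the mean of Hoxb7 was 128 ± 22.2 CPM with water load and 233 ± 106 CPM in controls (SD over 10 rats each, which also spans the days). The fitted difference was -0.85 on the log2 scale (SE 0.205, adjusted p 0.0946), which did not pass. DESeq2 gave an adjusted p of 0.0113. The day 1 difference was -1.07 with all libraries and -0.30 without the pair that stood apart, control rat 1 of day 1 being the highest library.

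Hoxb2 had the second smallest p over the average of days. The water-loaded rats of day 1 had 76.4, 67.8 and 45.5 CPM of Hoxb2, against 208, 143 and 71.6 CPM in control rats. Day 2 gave 23.6, 52.1, 63.7 and 45.9 CPM with water load and 97.1, 113, 88.2 and 58.9 CPM in control rats. Day 4 gave 63.03, 89.8 and 138 CPM with water load and 209.8, 199 and 98.9 CPM in control rats. The groups overlapped at each day, with the lowest control rat inside the range of the water-loaded rats each time, and in each of the 4 numbered pairs of day 2 the water-loaded rat was the lower. The mean of Hoxb2 was 66.6 ± 31.1 CPM with water load and 129 ± 57.7 CPM in controls (SD over 10 rats each), a fitted difference of -0.97 on the log2 scale (SE 0.251), with an adjusted p of 0.105 in edgeR and 0.0134 in DESeq2.

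Hoxd8, the member with the highest level, differed most at day 1. Its values there were 135, 144 and 108 CPM in water-loaded rats, against 423, 267 and 279.5 CPM in control rats. At day 2 water-loaded rats had 78.8, 97.1, 139 and 89.05 CPM and control rats 158, 252, 173 and 114 CPM. At day 4 they had 106, 124 and 98.4 CPM in the water-loaded and 72.4, 173 and 116 CPM in the control group. The day 1 groups did not overlap, those of day 2 overlapped in part, and at day 4 the lowest library was a control. On the log2 scale day 1 differed by -1.32 (SE 0.354), with an adjusted p of 0.189 in edgeR and 0.0137 in DESeq2, the smallest p of any Hox member at that day. Over the average it was -0.75 (SE 0.194, adjusted p 0.105), and the difference of the effect between days had an adjusted p of 0.641.

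**Figure D2:**
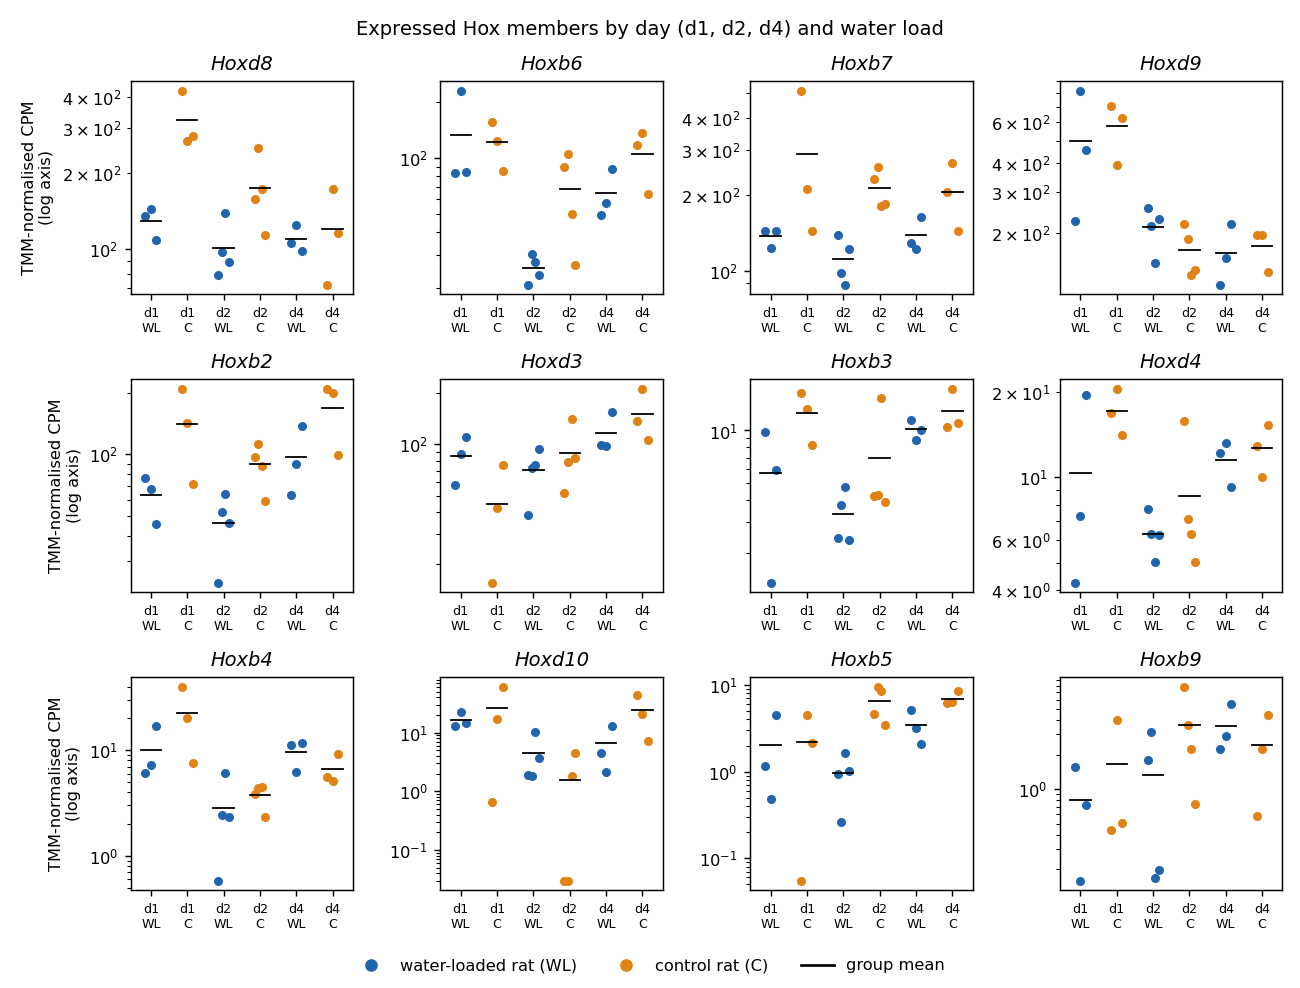
TMM-normalised CPM (log axis, a scale of its own in each panel) of the 12 expressed Hox members in each rat, in water-loaded rats (blue, left) and control rats (orange, right) at days 1, 2 and 4, with the group mean as a line; the 2 libraries with 0 counts of Hoxd10 are drawn at the foot of its panel. Hoxd8 at day 1 and Hoxb7 and Hoxb5 at day 2 show groups apart, and the mean of Hoxd9 is higher at day 1 than later in both arms.

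Hoxb6 had the smallest p at day 2. In day 1 libraries Hoxb6 had 82.9, 230.1 and 84.7 CPM in water-loaded rats, against 156, 124 and 85.4 CPM in controls. For day 2 the values were 20.9, 30.4, 27.6 and 23.4 CPM in water-loaded rats and 89.96, 106, 49.97 and 26.8 CPM in controls. For day 4 they were 49.6, 57.4 and 87.8 CPM in water-loaded rats and 117, 136 and 64.03 CPM in controls. The water-loaded rats of day 2 were the lowest group and lay close together, and 1 control rat reached into their range. The day 2 log2 difference was -1.41 (SE 0.437, adjusted p 0.855). The high day 1 value belongs to water-loaded rat 2, one of the pair that stood apart, and the day 1 difference was 0.12 with it and -0.32 without the pair.

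In the edgeR fit Hoxd9 alone of the 16 members passed a test, and did so over the days in control rats and not for water load. Day 1 gave 226, 821 and 455 CPM of Hoxd9 in water-loaded rats and 707, 392 and 628 CPM in control rats. The day 2 libraries had 255, 215, 149 and 231 CPM in water-loaded and 218, 189, 131 and 138 CPM in control rats. By day 4 there were 119.8, 155 and 218 CPM in water-loaded and 196, 196 and 135 CPM in control rats. Each day 1 control was above each control of days 2 and 4, and water-loaded and control rats overlapped at each day. In control rats Hoxd9 averaged 576 ± 164 CPM at day 1 (SD, n = 3), 169 ± 41.5 CPM at day 2 (n = 4) and 176 ± 35.4 CPM at day 4 (n = 3). The log2 differences were -1.77 for day 2 minus day 1 and -1.71 for day 4 minus day 1 (adjusted p 0.0171, edgeR). Of the 16 members tested 1 passed over the days in control rats, and of all genes 355, or 2.45%. An unadjusted p under 0.05 was reached by 5 of 16 members and 22.5% of genes.

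The Hoxd9 call rested in part on control rat 1 of day 1, the library with the smooth muscle markers. Without it the differences were -1.59 and -1.54 with an adjusted p of 0.0969, and 43 genes passed in place of 355. Without both libraries that stood apart they were -1.61 and -1.58 with an adjusted p of 0.0315. Of the smooth muscle markers 4 of 4 tested passed over the same days, beside 2.45% of all genes. Their summed level in controls was 4.83 to 4336 CPM at day 1, 0.484 to 7.33 CPM at day 2 and 0.0642 to 7.90 CPM at day 4. Fibroblast and pericyte markers passed in 2 of 6, type A in 1 of 5 and type B intercalated cell markers in 1 of 4, and no marker of the other lists passed. The type B sum in controls was 4338 to 4805 CPM at day 1, 6242 to 8191 CPM at day 2 and 7579 to 8308 CPM at day 4. Day and batch of dissection cannot be told apart, since the labels give neither date nor batch.

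In water-loaded rats Hoxd9 averaged 500 ± 300.1 CPM at day 1 (SD, n = 3), 212 ± 45.5 CPM at day 2 (n = 4) and 164 ± 49.9 CPM at day 4 (n = 3), with log2 differences from day 1 of -1.24 and -1.60. Without water-loaded rat 2 of day 1, the highest library, they were -0.68 and -1.05 (adjusted p 0.604). This comparison was added after the control values were seen, and its adjusted p of 0.0965 did not pass. No member passed there, and 38 genes, or 0.263%, did. An unadjusted p under 0.05 was reached by 4 of 16 members and 12.1% of genes. DESeq2 called 2 members, Hoxb6 and Hoxd9, and 520 genes in all. Each limma fit called 1 member, Hoxb6, and 124 or 127 genes in all. Hoxb6 had the smallest p, with log2 differences of -2.37 for day 2 and -1.03 for day 4 (adjusted p 0.0715), and without the same library they were -1.71 and -0.37 (adjusted p 0.389). The effect of water load on Hoxd9 did not pass as different between days (adjusted p 0.994).

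Hoxd8 was the next member by p over the days in control rats, with log2 differences of -0.89 for day 2 minus day 1 and -1.42 for day 4 minus day 1 (adjusted p 0.0603), and -0.65 and -1.18 without control rat 1 of day 1 (adjusted p 0.213). Hoxd3 had positive ones, 0.98 and 1.75 (adjusted p 0.119), and 0.58 and 1.34 without that library (adjusted p 0.249). Hoxd3 had 57.6, 88.1 and 110.2 CPM in water-loaded rats at day 1, against 15.6, 42.7 and 76.2 CPM in control rats. At day 2 Hoxd3 had 38.8, 72.7, 75.8 and 94.2 CPM in water-loaded and 52.2, 78.9, 139.8 and 83.05 CPM in control rats. At day 4 Hoxd3 had 98.9, 97.7 and 154 CPM in water-loaded and 136, 211 and 105 CPM in control rats. The day 1 control rat with the smooth muscle markers was the lowest library, and the groups overlapped at all days. Hoxd3 was 1 of the 2 expressed members with a positive fitted difference over the average of days, 0.08 on the log2 scale, and Hoxd9 with 0.01 was the other, and without both day 1 libraries that stood apart these were -0.06 for Hoxd3 and -0.12 for Hoxd9.

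The 6 lower members are given next, in order of level. Hoxb3, a hindbrain patterning gene, had 9.84, 1.35 and 5.97 CPM in water-loaded rats, against 16.4, 13.3 and 8.28 CPM in control rats at day 1. The day 2 values of Hoxb3 were 2.43, 3.75, 4.72 and 2.38 CPM in water-loaded rats and 4.22, 4.27, 15.3 and 3.89 CPM in control rats. At day 4 they were 11.5, 8.78 and 10.1 CPM in water-loaded rats and 10.4, 17.3 and 11.1 CPM in control rats. A single control library of day 2 was far above the other 3, and the groups overlapped at each day.

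Hoxd4, which patterns the second cervical vertebra in mouse, had 4.25, 7.33 and 19.5 CPM in water-loaded rats, against 16.9, 20.6 and 14.1 CPM in control rats at day 1. Its day 2 libraries held 7.72, 6.32, 5.00 and 6.24 CPM in water-loaded rats and 15.8, 7.11, 6.31 and 5.03 CPM in control rats. Its day 4 libraries held 12.2, 13.2 and 9.26 CPM in water-loaded rats and 12.97, 10.03 and 15.3 CPM in control rats. The groups overlapped at all 3 days, and the fitted difference over the average was -0.44 on the log2 scale (SE 0.407).

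Hoxb4 showed 6.08, 7.25 and 17.04 CPM in water-loaded rats and 39.9, 20.2 and 7.61 CPM in control rats at day 1. At day 2 Hoxb4 showed 0.585, 2.41, 6.08 and 2.35 CPM in water-loaded and 3.83, 4.42, 4.44 and 2.33 CPM in control rats. At day 4 Hoxb4 showed 11.2, 6.19 and 11.6 CPM in water-loaded and 5.56, 5.09 and 9.14 CPM in control rats. The highest library was again control rat 1 of day 1, and no day had groups apart.

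Hoxd10, a gene of lumbar motor neurons and hindlimb in mouse, was the most uneven expressed member. It had 13.02, 22.3 and 14.7 CPM in water-loaded rats at day 1, against 0.663, 17.02 and 61.3 CPM in control rats. Day 2 values of Hoxd10 were 1.92, 1.82, 10.5 and 3.76 CPM in water-loaded rats and 0, 0, 1.84 and 4.49 CPM in control rats. Day 4 values of Hoxd10 were 4.50, 2.16 and 13.2 CPM in water-loaded rats and 44.7, 20.9 and 7.17 CPM in control rats. The SD over the 20 libraries was 128.5% of the mean, and 2 control libraries of day 2 had 0 counts, and the groups overlapped at each day.

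Hoxb5, which helps place the shoulder girdle in mouse, had 1.16, 0.476 and 4.47 CPM in water-loaded rats and 0.0553, 4.45 and 2.15 CPM in control rats at day 1. The 4 water-loaded rats of day 2 had 0.939, 0.260, 1.66 and 1.01 CPM of Hoxb5, against 4.67, 9.57, 8.50 and 3.45 CPM in the 4 control rats. On day 4 there were 5.18, 3.17 and 2.06 CPM in water-loaded rats and 6.14, 6.29 and 8.46 CPM in control rats. Water-loaded rats lay below all controls at days 2 and 4 and mixed with them at day 1. The day 2 log2 difference was -2.76 (SE 1.14, adjusted p 0.857), so it did not pass.

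Hoxb9, which patterns ribs in mouse, had 1.54, 0.159 and 0.719 CPM in water-loaded rats and 0.442, 4.03 and 0.509 CPM in control rats at day 1. Day 2 libraries had 1.80, 3.17, 0.166 and 0.198 CPM of Hoxb9 in water-loaded rats and 7.85, 3.62, 2.23 and 0.746 CPM in control rats. Day 4 libraries had 2.23, 2.90 and 5.58 CPM of Hoxb9 in water-loaded rats and 0.578, 2.25 and 4.48 CPM in control rats. Its groups overlapped at all days, and libraries of a group were spread widely.

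Most fitted differences of the expressed members were below 0. Over the average of days 10 of the 12 were below 0, all 7 of the B cluster and 3 of the 5 of the D cluster, and the median of the 12 was -0.65 on the log2 scale, beside 0.01 over all genes tested. At day 1 10 of 12 were below 0 with a median of -0.88, at day 2 10 of 12 with -0.85 and at day 4 10 of 12 with -0.36, beside medians of 0.00, -0.05 and 0.00 over all genes. Over the average of days 49% of all genes were below 0, and at days 1, 2 and 4 these were 48.9%, 53.2% and 49.8%. Over 29 alternative settings the number below 0 was 9 to 12 for the average, 8 to 11 at day 1, 9 to 10 at day 2 and 6 to 10 at day 4. The median ran from -0.75 to -0.38 for the average, -1.11 to -0.48 at day 1, -1.02 to -0.66 at day 2 and -0.49 to -0.06 at day 4. Without both day 1 libraries that stood apart it was -0.50 at day 1. At day 4 it was -0.19 without control rat 2 of that day and -0.08 with detected genes as a covariate. Within the 4 numbered pairs of day 2 the water-loaded rat was the lower in all 4 for Hoxb2, Hoxb3, Hoxb5, Hoxb6, Hoxb7, Hoxb9 and Hoxd8. Of all genes 7.95% were lower in all 4. For Hoxd9 the water-loaded rat was the higher in all 4, and the share of all genes higher in all 4 was not counted. For Hoxb5 and Hoxb7 the day 2 groups did not overlap, so any numbering of the rats would give the same signs. The labels do not state that the numbers pair rats, and the signs were read after seeing the data. They are therefore no separate support for lower levels. With the pairs as a block the adjusted p was 1 for each of the 12. The 4 comparisons use the same libraries and are not independent of each other. The 12 members were also measured in the same libraries, so their signs are not 12 separate observations.

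**Figure D3:**
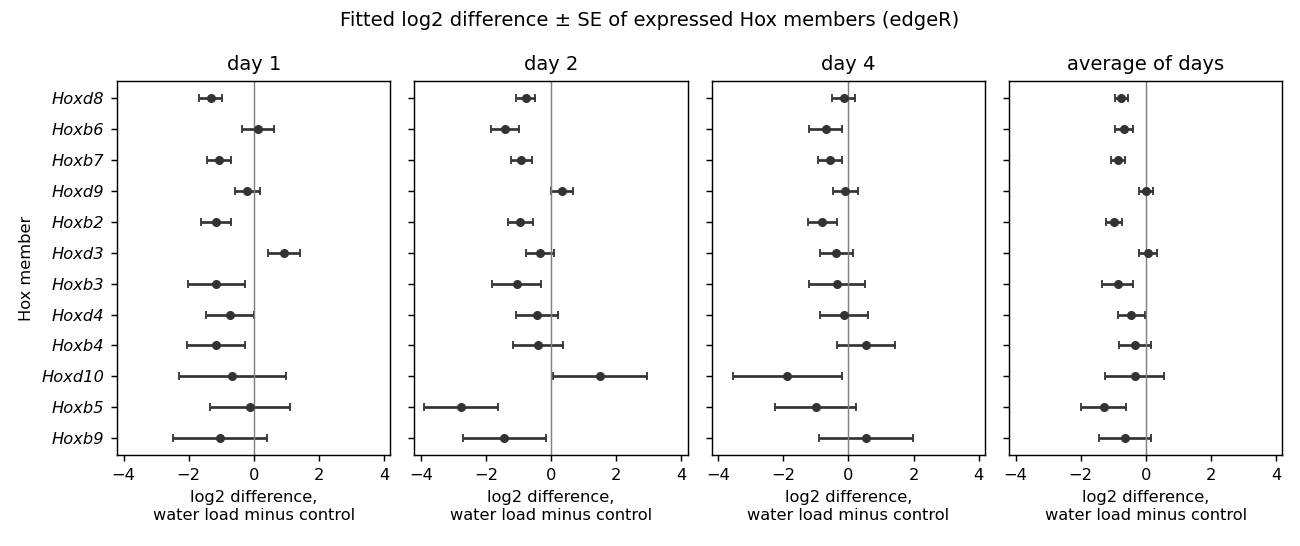
Fitted log2 difference, water load minus control, of the 12 expressed Hox members (rows, highest median FPKM at the top) at days 1, 2 and 4 and over the average of days; points are edgeR estimates and bars their SE. Points left of the grey line at 0 are lower in water-loaded rats; Hoxb7 and Hoxb2 lie left of it in each panel, and no member passed the adjusted threshold.

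At an unadjusted p under 0.05, 4 of 16 members were counted at day 1, where 15.6% of all genes were, 7 at day 2, where 5.23% were, and 2 at day 4, where 7.22% were. Over the average of days 5 of 16 were, and 13.5% of all genes. DESeq2 called 1 Hox member at day 1 (Hoxd8), 1 at day 2 (Hoxd1), 0 at day 4 and 4 over the average of days (Hoxb2, Hoxb7, Hoxd1 and Hoxd8), while it called 708 genes in all over the average, 1126 at day 1 and 77 at day 2. Both limma fits called 0 members in these comparisons. Non-overlapping groups had water load below control in Hoxd8 and Hoxd11 at day 1, in Hoxb7, Hoxb5 and Hoxd1 at day 2 and in Hoxb8 and Hoxb5 at day 4, and above it in Hoxd11 at day 4. For Hoxd11 these separations rest on 1 and 3 counts against 0. Of all genes 5.17% were so below at day 1, 1.88% at day 2 and 6.8% at day 4, and 5.71%, 2.35% and 7.93% were above at days 1, 2 and 4.

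The summed level of the 8 principal cell markers was 12225 to 23185 CPM in water-loaded libraries and 22968 to 65575 CPM in control libraries. Most of the sum was Aqp2, with a mean of 13367 CPM with water load and 28840 CPM in controls. Scnn1b had means of 1036 and 1066 CPM and Aqp4 of 126 and 126 CPM, in that order. All 8 fitted differences were below 0 over the average of days, with a median of -0.45 on the log2 scale. Of the 8, 2 were called over the average of days, where 0.159% of all genes were, and 0 on a single day. The 2 were Aqp2 and the water channel Aqp3, both lower in water-loaded rats. Aqp2, the most abundant of them, fell by 1.07 on the log2 scale (adjusted p 0.0262). Type A intercalated cell markers summed to 2750 to 3794 CPM in water-loaded and 2131 to 2457 CPM in control libraries at day 1, 3081 to 3956 CPM in water-loaded and 2298 to 3417 CPM in control libraries at day 2, and 3097 to 4071 CPM in water-loaded and 2745 to 3536 CPM in control libraries at day 4. Type B markers summed to 4923 to 5629 CPM in water-loaded and 4338 to 4805 CPM in control libraries at day 1, 4526 to 8165 CPM in water-loaded and 6242 to 8191 CPM in control libraries at day 2, and 6041 to 8088 CPM in water-loaded and 7579 to 8308 CPM in control libraries at day 4. At day 1 the groups were apart for both sums, and of the 5 type A and 4 type B markers 0 were called for water load at day 1 or over the average. Atp6v1g3 stood in both lists, so the type A and type B sums are not separate observations. The part of the cell makeup in the Hox differences was not tested. Without the pair of libraries that stood apart the average differences were -0.59 for Hoxb7 (adjusted p 0.159), -0.85 for Hoxb2 (0.198) and -0.69 for Hoxd8 (0.190).

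The rows below the expressed level were uneven between libraries. Hoxb8, known in mouse from blood and microglial precursors, had group medians of 1.39 FPKM in water-loaded and 3.72 FPKM in control rats at day 1, 0.349 FPKM in water-loaded and 0.999 FPKM in control rats at day 2, and 0.768 FPKM in water-loaded and 0.919 FPKM in control rats at day 4. Hoxd1 had 151, 193 and 248 counts in the water-loaded rats of day 1, against 1999, 5 and 1 in the controls. Its day 2 counts were 0, 2, 0 and 0 in the water-loaded rats and 855, 26, 226 and 8 in the controls. At day 4 it had 52, 0 and 0 counts in water-loaded and 254, 0 and 0 in control rats. Such counts differed widely inside a group.

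Control rat 1 of day 1 had the highest count of several of them. Hoxc8, a trunk gene, had 2224 counts in that library, 7 in control rat 2, 1 in a water-loaded rat and 0 in the other 17. Hoxc5 had 587 there and 136 in control rat 3 of day 2. Hoxd1 had its highest count there, 1999. The same library was the highest for the smooth muscle, fibroblast and podocyte markers, the podocyte markers summing to 285 CPM. It also had the highest TMM-normalised CPM of Hoxb7, at 511, and of Hoxd8, at 423. Its low TMM factor, 0.645, raises these CPM. By FPKM, which uses no such factor, Hoxd8 lay within 307 to 340 FPKM in the 3 day 1 controls. The part of other cell types in these counts was not tested.

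Hoxd11, a gene of the nephron progenitor mesenchyme in mouse, passed 3 counts in 6 libraries. It had 0 counts in all 3 water-loaded rats of day 1, against 8, 1 and 107 in the controls. At day 2 it had 0 in all 4 water-loaded rats, against 0, 0, 7 and 6 in the controls, and at day 4 it had 3, 16 and 28 in water-loaded rats and 0 in all 3 controls. A count of 0 allows up to 3, so neither the day 1 nor the day 4 groups were separated beyond counting error. Hoxd11 had the smallest p for the water load effect differing between days (p 0.00552, adjusted p 0.43), which did not pass. It also had the smallest p at day 4, with an adjusted p of 0.674. Hoxc4 passed 3 counts in 5 libraries with at most 19 counts, Hoxc9 and Hoxc10 in 2 each and Hoxc6 in 1, with at most 36, 11 and 11 counts.

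**Figure D4:**
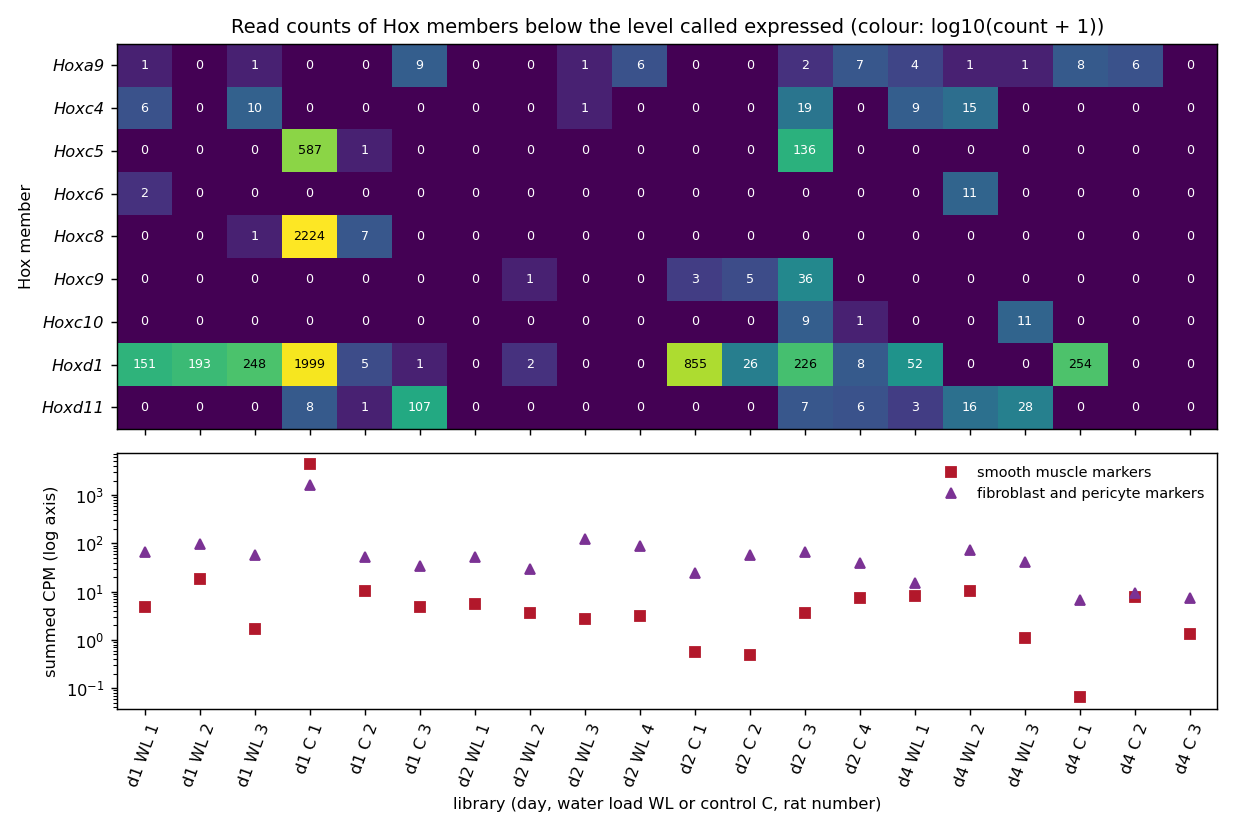
Upper panel: read counts, printed and coloured as log10(count + 1), of the 9 Hox members below the expressed level that passed 3 counts in some library other than Hoxb8, in each rat (columns, water-loaded before control at each day). Lower panel: summed CPM (log axis) of smooth muscle and fibroblast and pericyte markers in the same libraries; control rat 1 of day 1 has 2224 counts of Hoxc8 and 4336 CPM of smooth muscle markers.

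Hox proteins bind DNA with cofactors of the TALE homeobox class. Of 9 listed cofactors 5 were expressed, among them Pbx2 at 18.0 FPKM, Pbx3 at 10.1 FPKM, Pknox1 at 7.98 FPKM and Meis3 at 3.74 FPKM. Meis1 had a median of 0.00650 FPKM and at most 0.963 FPKM. No cofactor passed in any comparison (0 of 9 tested), and over the average of days 5 were above and 4 below 0, with 2 at an unadjusted p under 0.05, beside 13.5% of all genes. Polycomb and Trithorax genes, which keep Hox genes off or on, were expressed in 19 of 22 rows found, among them Rnf2 at 43.8 FPKM, Men1 at 34.9 FPKM and Cbx7 at 30.01 FPKM, and 0 of 22 passed in any comparison, with 3 at an unadjusted p under 0.05 over the average of days, near the same share.

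Regulators of the ureteric bud and collecting duct were expressed in 15 of 21 rows. Hmx2, a homeobox gene, had 1037 FPKM, more than any Hox member, Foxi1, which sets intercalated cell identity, 243 FPKM, Pax8 154 FPKM and Gata2 151 FPKM. Pax2 was uneven, with a median of 0.0878 FPKM, over 3 counts in 10 of the 20 libraries and at most 15.4 FPKM. Over the average of days 1 of 20 tested was called, beside 0.159% of all genes. It was Hmx2, which fell to 1149 ± 258 CPM in water-loaded rats, against 2178 ± 551 CPM in controls (SD over 10 rats each), a log2 difference of -0.92 (adjusted p 0.00202). Over the days in control rats 1 of 20 was called, beside 2.45% of all genes. It was Foxi1, with 316 ± 26.7 CPM at day 1, 578 ± 146 CPM at day 2 and 933 ± 135 CPM at day 4 (adjusted p 0.0237). The list was chosen with earlier results of these data known, so its shares called cannot be weighed against those of all genes.

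Genes of the nephron progenitors and targets of the position 11 Hox genes in mouse were expressed in 0 of 9 rows. Six2, which maintains these progenitors in mouse, had a highest value of 0.0373 FPKM, Gdnf, the growth factor that draws out the ureteric bud, and Wt1 had 0 counts, and Sall1 had 0.755 FPKM. Only 2 of them had counts enough for the test and 0 passed. Of the ParaHox and Hox-linked genes 0 of 7 rows were expressed, Cdx1, Cdx4, Pdx1, Gsx1, Gsx2 and Evx2 having 0 counts in every library.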

How the data were processed

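RNA-seq counts and FPKM of 20 libraries were read from the authors' deposited table, with 1 column of each per rat. The deposited counts are whole numbers of reads per gene. The FPKM values deposited by the authors are the same counts rescaled by gene length and library: the length they imply varied by more than 0.1% between libraries in 0 of 13538 genes that had 50 counts or more in at least 2 of them. Per the submitters' processing notes the tools were HTSeq, SAMtools, STAR 2.4.0.1 and Trimmomatic 0.32, and rn6 was the genome. The sources used here give neither the annotation nor the use of strand, so antisense or overlapping reads cannot be told apart. Per the labels' protocols cDNA was synthesised straight from lysed tubules following a single-cell method with amplification, which adds spread to low counts. The 5 lines that name no gene, 31.5% to 35.6% of the counts of a library, were left out.

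The test was edgeR 4.0.16 (R 4.3.3) on 14472 genes kept by filterByExpr on group, using TMM factors, a robust quasi-likelihood fit of all libraries with 1 mean for each group, and Benjamini-Hochberg adjustment over these genes (threshold 0.05). Compared were water-loaded with control rats on each day and over the equally weighted days, this effect between days, and the days in control rats, the last 2 by F tests. Alternatives were DESeq2 1.42.0, limma 3.58.1 on log2(FPKM + 1) and log2(FPKM + 0.1), other size factors and filters, a covariate for detected genes, the replicate number as a block and leaving out each library. Leaving out both day 1 libraries that stood apart, the test of days in water-loaded rats and the signs within numbered pairs of day 2 were chosen after seeing the data. Each library is a separate rat per the labels. Replicate numbers were checked for pairing, which the labels do not state. Deviations of same-numbered rats correlated at -0.06 to 0.06 at day 1, 0.15 to 0.24 at day 2 and -0.09 to 0.00 at day 4. The main fit paired no rats, and the block alternative paired same-numbered rats at each day. Signs within numbered pairs were read at day 2 only.

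The named genes are all Hox members with a median of at least 1 FPKM, any member called, the member with the smallest p of each comparison, and from each list the members called or else the highest, except a few genes that are not reported here. Members and lists were chosen with earlier results of these data known. Promoter and miRNA sequences are from RefSeq (GRCr8), matched by symbol, and positions in them belong to that build and not to rn6.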

Additional observations from a re-analysis of the deposited data

Results flagged for a closer look

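Of 24 groups of 4 rats checked, 12 expressed members in each of the 2 day 2 groups, 1 had a library far from the other 3. Hoxb3 in control rat 3 of day 2 was at 15.3 CPM, against 4.22, 4.27 and 3.89 CPM in the other control rats of that day. The gap to the nearest was 0.967 of the whole range, above the 95% critical value of Dixon's test for 4 samples, and chance alone flags about 1 group in 20. The same library held 136 counts of Hoxc5 and 36 of Hoxc9, each at most 5 counts in the other control rats of that day. Its loop of Henle markers summed to 938 CPM, against at most 446 CPM in any other library. The part of these in the Hoxb3 value was not tested.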

How the results depend on the processing

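The 12 expressed members were also 12 when each library was left out, and within 1.5 times of that number at thresholds of 0.5 and 2 FPKM. DESeq2 called more members than edgeR: 1 at day 1, 1 at day 2, 4 over the average of days, 4 over the days in control rats (Hoxb4, Hoxd3, Hoxd8 and Hoxd9) and 2 over the days in water-loaded rats (Hoxb6 and Hoxd9), and 1586 and 520 genes in all over the days in control and in water-loaded rats. A filter of 1 CPM in 3 libraries gave 2 members over the days in control rats (Hoxd8 and Hoxd9) and 504 genes in all. Both limma fits gave 1 over the days in water-loaded rats (Hoxb6), and 124 genes in all with a pseudocount of 1 and 127 with 0.1. Leaving out 1 library gave 0 to 1 over the average of days. The 1 was Hoxb7, without control rat 3 of day 1 (adjusted p 0.0449, edgeR), where 37 genes in all passed. Over the days in control rats it gave 0 to 2, with 0 without control rat 1 of day 1 (43 genes in all) and 2 without control rat 2 of day 2 (360 genes in all). Over the days in water-loaded rats it gave 0 to 1. The 1 was Hoxd9 without water-loaded rat 1 of day 1 (56 genes in all) or Hoxb6 without control rat 4 of day 2 (41 genes in all). Hoxd9 over the control days ranged from -1.98 to -1.59 for day 2 and from -1.92 to -1.54 for day 4, with adjusted p from 0.00744 to 0.0969. At days 1, 2 and 4 and for the effect differing between days, leaving out 1 library called 0 members each time.

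With the replicate number as a block 0 members were called at day 1, day 2, day 4, over the average and between days, so the block changed no Hox call. The days in control or water-loaded rats could not be fitted with it. Under the block the sign turned for Hoxd9 over the average (-0.049), Hoxd10 at day 1 (0.69) and over the average (0.96), Hoxb6 at day 1 (-0.010) and Hoxb5 at day 1 (0.82).

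No difference whose sign turned had passed. With limma at pseudocounts of 1 and 0.1, Hoxd4 at day 4 was 0.10 and 0.13, Hoxd9 at day 4 0.15 and 0.15, Hoxd8 at day 4 0.21 and 0.21, and Hoxd10 at day 1 0.23 and 0.80. At 0.1 alone Hoxd10 over the average was 0.45 and Hoxb5 at day 1 0.26. With detected genes as a covariate Hoxd3 over the average was -0.089, and at day 4 Hoxd4 was 0.048, Hoxd9 0.38, Hoxb6 0.20 and Hoxd8 0.086. Without both day 1 libraries that stood apart, Hoxd3 over the average was -0.062, Hoxd9 over the average -0.12 and Hoxb6 at day 1 -0.32. Leaving out 1 library gave, at day 1, -1.44 to 0.88 for Hoxb5, -0.54 to 0.36 for Hoxb6, -1.92 to 0.76 for Hoxb9, -1.23 to 0.92 for Hoxd10 and -0.76 to 0.14 for Hoxd9. At day 2 it gave -0.64 to 0.047 for Hoxd4, and at day 4 -0.29 to 0.014 for Hoxd4, -0.40 to 0.22 for Hoxd8 and -0.36 to 0.11 for Hoxd9. Over the average it gave -0.68 to 0.18 for Hoxd10, -0.059 to 0.28 for Hoxd3, -0.17 to 0.13 for Hoxd9 and -0.96 to -0.62 for Hoxb7. The causes were not tested, and depth limits statements on rows at or under 3 counts.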
